A study of Mus musculus with 14 samples.

Results

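The genes described here belong to guidance systems whose ligands and receptors steer growing axons: the semaphorins with their plexin and neuropilin receptors, the ephrins with their Eph receptors, and the Slits with their Robo receptors. Members were all genes on the array whose symbol begins Sema, Plxn, Efna, Efnb, Epha or Ephb, or Slit or Robo followed by a digit, together with Nrp1 and Nrp2. The rule found 57 of the 16244 genes measured, and 1 of the 57, Plxna4os1, is by its symbol a transcript opposite Plxna4 rather than a plexin. Of the other members 30 encode ligands and 26 receptors.

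The medial vestibular nucleus lies in the brainstem and carries signals of head movement to the eyes, neck and cerebellum. Its neurons were collected one by one from C57BL/6 mice aged 24 to 32 days that carried the YFP-16, GIN or GlyT2-13 reporter. The pools share this description, and the labels do not say which line gave the cells of which pool. In YFP-16 the fluorescent protein is driven by Thy1 sequences, in GIN by Gad1 sequences and in GlyT2-13 by those of Slc6a5, so each line shows only part of the neurons. The cDNA of each cell was amplified, the cell was given a type, and the cDNA of cells of a type was pooled. There are 2 pools of excitatory types (E1, E2) and 5 pools of inhibitory types (I1a, I1b, I2, I3a, I3b). With 2 Affymetrix arrays as technical replicates of every pool, 14 arrays were made. With 1 pool per type, a difference between single pools compares those pools, and its p-value covers the technical spread alone.

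Class 3 semaphorins are secreted and act through a neuropilin bound to a plexin, except that Sema3e can bind Plxnd1 directly. Other vertebrate semaphorins are held in the membrane and mostly bind plexins. Ephrins are anchored in the membrane, ephrin-A by a lipid and ephrin-B by a transmembrane segment, and signal to Eph receptor tyrosine kinases on a touching cell. Slits are secreted and repel growth cones through Robo receptors. In the adult brain several of these genes stay on and are known for roles in synapse number, dendritic spines and plasticity.

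Values are log2 signals from a shared floor of 2.39. Some probe sets also repeated a higher value of their own on arrays of several pools, such as 5.31931 for Sema6c and 4.436678 for Nrp2. A gene counts as present at a pool mean of 5 or more, and each gene is read by 1 probe set, the one with the highest mean over all arrays. Levels of different genes come from different probes and are not compared with each other. Arrays of the same pool correlated over the 4409 genes that reached 5 in some pool at r = 0.981 to 0.992, and arrays of different pools at 0.847 to 0.960. Of 6 neuronal markers all reached 5, with Snap25, a synaptic fusion protein, at 12.40 to 13.57 in every pool. The pool means of the transmitter genes did not overlap between E and I, but Slc17a6 was also high in some I pools. Slc17a6, a vesicular glutamate transporter and so a gene of excitatory cells, had levels of 10.98 (E2) and 11.11 (E1). In the inhibitory pools it ranged from 3.11 (I2) and 3.19 (I3b) through 6.93 (I3a) and 8.6 (I1a) to 10.48 (I1b). Gad1, which makes GABA, stood at 7.80 in E1 and 6.80 in E2 and at 10.75 to 12.38 in the I pools. Slc32a1 stood at 6.60 in E1 and 5.41 in E2 and at 9.20 to 9.76 in the I pools. Slc6a5 stood at 6.31 in E1 and 3.33 in E2 and at 7.53 to 8.47 in the I pools. The part of these mixed levels in the comparisons was not tested. The E against I result is also given without I1b and I3a. That setting keeps I1a, whose Slc17a6 level was above that of I3a. Among markers of other cells, all 6 astrocyte genes and the 3 microglial genes on the array stayed under 5, with Gfap and C1qa at the floor throughout. Of 6 oligodendrocyte genes 2 reached 5: Mbp stood at 6.20 in I3a, 5.50 in I1b and 3.43 or below elsewhere, and Cnp at 9.14 in I3a and 4.25 to 6.62 elsewhere, while Mog stayed at 2.48 or below. Of 4 vascular genes 1 reached 5, Rgs5, at 7.35 in I2 and 2.57 or below elsewhere, while Cldn5, the defining endothelial gene, was at the floor in every pool.

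Of the 57 members 18 (31.6%) reached 5 in at least 1 pool, against 27.1% of all genes. The RefSeq genes Efna4, Ephb2, Ephb4 and Plxna3 were not analysed here. The 18 were Sema3a, Sema3c, Sema3e, Sema4a, Sema4f, Sema6c, Sema6d, Sema7a, Efnb2 and Slit2 among the ligands, and Nrp2, Plxna2, Plxnb3, Epha4, Epha5, Epha7, Epha10 and Ephb1 among the receptors. Of these 9 were at 5 or more in all 7 pools and 9 in some only. Sema6c is counted in all 7 by its level, but its probe set repeated the same values across pools. Such levels do not show that the RNA was present. Between 12 members in I3a and 15 in I2 reached 5 in a given pool, a share of 21.1% to 26.3%, where all genes gave 21.9% to 23.4%. The members nearest the threshold were Epha7 at 5.12 and Nrp2 at 5.21 in their highest pools, just inside, and Plxnc1 at 4.99 and Sema4d at 4.85, just outside. No ephrin-A and no Robo gene reached 5. Another 24 members stayed under 3 in every pool, and 15 peaked between 3 and 5. A low value limits what the probe set recorded and does not show that the RNA was absent.

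**Figure D1:**
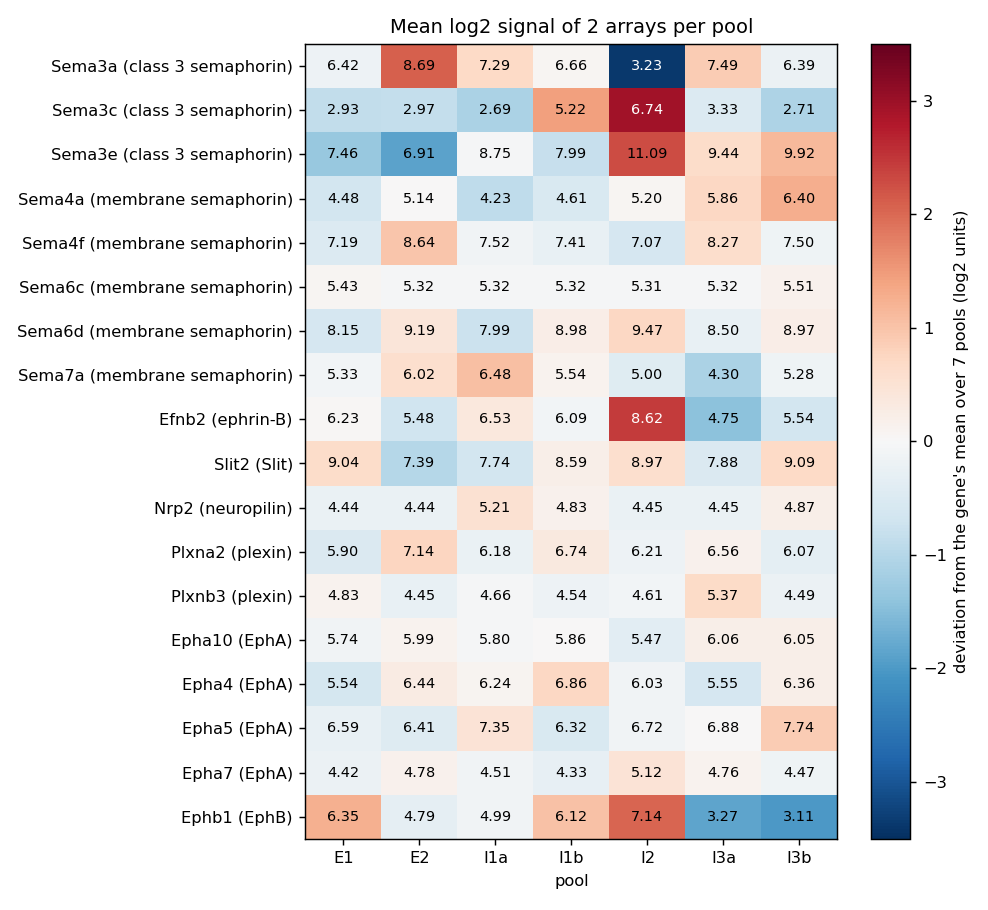
Mean log2 signal of the 2 arrays of each pool (columns) for the 18 members at 5 or more in some pool (rows, with their class); printed numbers are levels and colours give the deviation from the gene's own mean over the 7 pools. I2 holds the lowest Sema3a (3.23) and the highest Sema3c (6.74), Sema3e (11.09), Efnb2 (8.62) and Ephb1 (7.14), while Sema6c varies by 0.19.

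Of the 18 members tested 13 differed among the 7 pools beyond the technical spread, by limma's F test at a Benjamini-Hochberg adjusted p under 0.05 over all 4409 genes and a range of at least 1 log2 unit. By the same rule 55.2% of all genes tested were called. The median range over pools was 1.52 log2 units for the members and 1.13 for all genes. A gene that enters by its highest pool is more apt to vary, so these counts describe the members and support nothing further. The 5 members not called, Epha7, Epha10, Nrp2, Plxnb3 and Sema6c, had ranges of 0.19 to 0.92.

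Of the 7 secreted semaphorins on the array 3 reached 5. Sema3a, the prototype repellent of the class, read 6.43 and 6.40 (E1), 8.73 and 8.64 (E2), 7.39 and 7.19 (I1a), 6.42 and 6.90 (I1b), 3.24 and 3.22 (I2), 7.85 and 7.14 (I3a), 6.29 and 6.49 (I3b). It was high in E2, intermediate in 5 pools and low in I2, whose 2 arrays lay below the lowest array of any other pool by 3.05 log2 units as measured and by 1.29 with values under 5 set to 5. The I2 level is under 5, so no exact fold is given. I3a and I1a overlapped in their arrays, as did I1b, E1 and I3b in turn. The range of Sema3a pool means was 5.46 log2 units (adjusted p 2.42e-08 by limma's F test on 14 arrays), and 2.73 when averaged with a further probe set that stayed at 2.63 or below.

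Sema3c, which can attract as well as repel axons, was highest in I2. It read 2.93 and 2.93 (E1), 3.0 and 2.93 (E2), 2.47 and 2.92 (I1a), 4.86 and 5.59 (I1b), 6.72 and 6.76 (I2), 3.72 and 2.93 (I3a), 2.93 and 2.49 (I3b). Only I2 and I1b lay above 5, and the lower I2 array stood 1.13 log2 units above the higher I1b array. The other 5 pools lay between 2.69 and 3.33 and overlapped with their neighbours in order. The range was 4.05 log2 units (adjusted p 9.31e-07), and 1.74 log2 units with values under 5 set to 5.

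Sema3e, known for guiding axons and vessels through Plxnd1, was present in every pool. It read 7.56 and 7.36 (E1), 6.90 and 6.92 (E2), 8.84 and 8.67 (I1a), 7.97 and 8.01 (I1b), 11.11 and 11.07 (I2), 9.45 and 9.42 (I3a), 9.85 and 9.99 (I3b). The order from I2 through I3b, I3a, I1a, I1b and E1 to E2 had no overlap between the arrays of neighbouring pools, and I2 lay 1.08 log2 units above the nearest array, from I3b. Its range was 4.18 log2 units (adjusted p 1.06e-10), and its spread between arrays of a pool, with an SD of 0.08, was low beside 0.21 for the median of the 18 members. The 4 other class 3 genes on the array did not reach 5: Sema3d peaked at 3.05, Sema3g at 3.32, Sema3b at 2.55 and Sema3f at 2.58.

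Efnb2 encodes ephrin-B2, a ligand that also signals backward into the cell that bears it. It read 6.28 and 6.17 (E1), 5.73 and 5.22 (E2), 6.94 and 6.12 (I1a), 6.07 and 6.10 (I1b), 8.35 and 8.89 (I2), 4.29 and 5.20 (I3a), 5.86 and 5.22 (I3b). I2 was again apart, with its lower array 1.41 log2 units above the highest array of another pool, I1a, and I3a was lowest. The range was 3.88 log2 units (adjusted p 2.14e-05), with an SD between arrays of 0.42, the largest of the 18. A further probe set for Efnb2 also peaked in I2, at 6.07, and lay between 4.03 and 4.78 in the other pools. Efnb1 peaked at 4.06 and Efnb3 at 2.59.

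These 4 ligands were the members set apart in a pool, meaning that both arrays of that pool lay at least 1 log2 unit beyond every array of the other pools. Of the 18 members 3 (16.7%) were set apart on the high side and 1 on the low side, all in I2. Of all 4409 genes, 4.15% were set apart high in some pool and 2.34% low. In I2 alone the shares of all genes were 2.99% high and 1.13% low, above those of the 6 other pools (0.0680% to 0.340% high and 0.0454% to 0.522% low). No other pool set a member apart. A pool value averages an unstated number of cells, so more cells with the RNA and more RNA per cell cannot be told apart. Rgs5 was also high in I2, so that the 4 vascular genes summed to 14.5 there and to 9.65 to 9.93 elsewhere, while Cldn5 was at the floor in I2. The part of Rgs5 in these levels was not tested. With a margin of 2 log2 units Sema3a was the 1 member left.

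On the reference assembly GRCm38.p6 the RefSeq annotation places 4 of the class 3 genes on 1 chromosome, chromosome 5. Sema3d spans positions 12383161 to 12588953, Sema3a 13124822 to 13603485, Sema3e 14025276 to 14256689 and Sema3c 17574816 to 17730268. Sema3a and Sema3e, which stand next to each other in this list, read opposite extremes in I2. Efnb2 lies at 8617235 to 8661242 of chromosome 8. Because 3 genes were set apart high in the same pool, their promoter sequences from the RefSeq-derived table are shown, each from 250 bases before to 50 after the annotated start, 5′ to 3′ on the gene's strand. Capitals mark matches, on either strand, to a TATA box (TATAAA), a GC box (GGGCGG) or a CCAAT box (CCAAT).
Sema3c (chr5:17574566-17574865, plus strand): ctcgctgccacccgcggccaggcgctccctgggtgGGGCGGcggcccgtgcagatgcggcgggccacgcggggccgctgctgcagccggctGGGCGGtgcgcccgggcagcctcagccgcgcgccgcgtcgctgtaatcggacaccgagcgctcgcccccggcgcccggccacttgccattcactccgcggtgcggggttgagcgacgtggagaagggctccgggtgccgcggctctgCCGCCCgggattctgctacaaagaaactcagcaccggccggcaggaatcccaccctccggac
Sema3e (chr5:14025026-14025325, plus strand): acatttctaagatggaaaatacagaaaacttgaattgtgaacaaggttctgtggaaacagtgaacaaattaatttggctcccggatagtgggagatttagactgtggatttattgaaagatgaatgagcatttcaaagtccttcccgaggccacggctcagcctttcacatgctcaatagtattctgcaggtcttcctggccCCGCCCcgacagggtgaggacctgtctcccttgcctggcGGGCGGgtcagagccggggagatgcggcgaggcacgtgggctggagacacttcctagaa
Efnb2 (chr8:8661193-8661492, minus strand): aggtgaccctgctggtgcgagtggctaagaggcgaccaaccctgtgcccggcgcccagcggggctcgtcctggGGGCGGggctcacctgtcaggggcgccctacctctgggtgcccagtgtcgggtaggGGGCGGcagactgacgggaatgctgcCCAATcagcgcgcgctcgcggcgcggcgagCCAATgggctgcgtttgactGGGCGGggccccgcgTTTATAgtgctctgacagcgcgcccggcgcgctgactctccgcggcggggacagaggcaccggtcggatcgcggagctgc
The GC box was found 3 times in Sema3c, 2 times in Sema3e and 3 times in Efnb2, and in 35.7% of the 32851 promoters of the same length. Efnb2 also held 2 CCAAT boxes, found in 37.4% of all promoters. Its TATA box match, beginning 30 bases before the start, reads TTTATA and so lies on the strand opposite the gene's. A match on either strand was found in 13.6% of all promoters. The windows held 42 CpG pairs in Sema3c, 35 in Efnb2 and 11 in Sema3e, with a median of 7 over all promoters. The start that the table gives for Sema3a lies inside the gene, and that sequence is not shown. Which starts these neurons use was not measured.

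**Figure D2:**
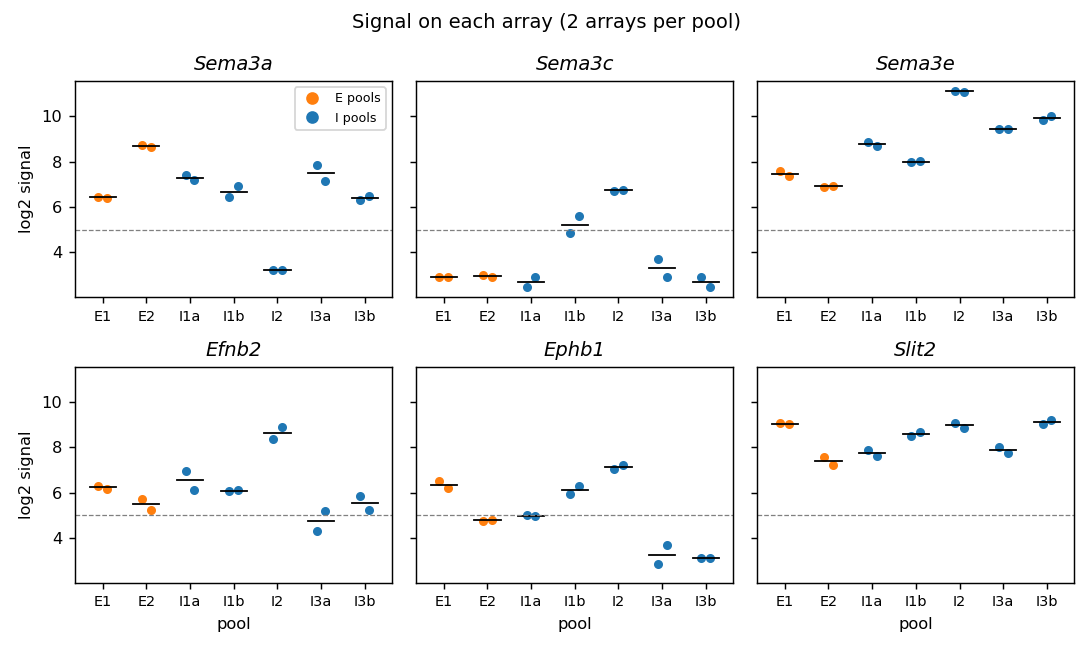
Log2 signal on each of the 14 arrays for 6 members (panels), by pool; points are arrays, orange for E and blue for I pools, black bars are pool means and the dashed line marks 5. Both I2 arrays lie apart from all others in the panels of Sema3a, Sema3c, Sema3e and Efnb2, while Ephb1 is below 4 in both I3 pools and Slit2 stays above 7 in all pools.

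Membrane semaphorins were represented by 5 of 13 genes. Sema6d, a ligand of A-type plexins, was present throughout, with pool means of 8.15 in E1, 9.19 in E2, 7.99 in I1a, 8.98 in I1b, 9.47 in I2, 8.50 in I3a and 8.97 in I3b. Sema4f, found at glutamatergic synapses, had pool means of 7.19 in E1, 8.64 in E2, 7.52 in I1a, 7.41 in I1b, 7.07 in I2, 8.27 in I3a and 7.50 in I3b. The highest pools were I2 for Sema6d and E2 for Sema4f, and both genes differed among pools (ranges 1.48 and 1.57, adjusted p 4.61e-05 and 1.18e-04). A further Sema6d probe set, under 5 throughout, ran the other way for these extremes, with 3.95 in I1a, its highest pool, and 2.39 in I2.

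Sema7a, which is held by a lipid anchor and binds Plxnc1 and integrins, stood at 5.33 in E1, 6.02 in E2, 6.48 in I1a, 5.54 in I1b, 5.0 in I2, 4.30 in I3a and 5.28 in I3b. It was highest in I1a and lowest in I3a, a range of 2.18 log2 units (adjusted p 1.48e-05). Sema4a, a ligand of several plexins and immune receptors, stood at 4.48 in E1, 5.14 in E2, 4.23 in I1a, 4.61 in I1b, 5.20 in I2, 5.86 in I3a and 6.40 in I3b. Both I3 pools were above the others, with a range of 2.17 (adjusted p 3.37e-05), or 1.40 with values under 5 set to 5. Sema6c lay at 5.31 or 5.32 in 5 pools, at 5.43 in E1 and at 5.51 in I3b, and did not pass the F test (adjusted p 0.767). Most of its arrays read exactly 5.314476 or 5.31931, so its level of 5 or more does not show that the RNA was present. The 8 other membrane semaphorins peaked at 4.85 or lower.

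For 2 of these genes the probe set in use bears the suffix x_at, which the array's maker gives to sets that can match other transcripts: Sema4f and Sema4a. Another probe set for each stayed near the floor, at 2.49 or below for Sema4f and 2.41 or below for Sema4a. Of the 18 members 11 had more than 1 probe set, and Efnb2 alone had a further set that reached 5. With all probe sets of a gene averaged, 8 of the 18 members were called among pools (Efnb2, Ephb1, Plxna2, Sema3a, Sema3c, Sema3e, Sema4a and Sema7a), and Epha4, Epha5, Sema4f, Sema6d and Slit2 were not, with ranges of 0.66 to 0.91. In that setting 37.6% of all genes were called.

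Slit2, the repellent that keeps axons from the midline, was present in every pool, whereas Slit1 peaked at 3.07 and Slit3 at 2.65. It read 9.07 and 9.0 (E1), 7.55 and 7.22 (E2), 7.87 and 7.61 (I1a), 8.51 and 8.67 (I1b), 9.08 and 8.86 (I2), 7.99 and 7.76 (I3a), 9.0 and 9.18 (I3b). I3b, E1 and I2 formed a high set with overlapping arrays, and E2 was lowest, for a range of 1.70 log2 units (adjusted p 1.55e-06). None of its receptors reached 5. Robo1, a Slit receptor of many axons, had means of 3.92 in E1, 3.05 in E2, 2.78 in I1a, 4.77 in I1b, 2.78 in I2, 2.83 in I3a and 2.47 in I3b, and Robo2, Robo3 and Robo4 stayed at 2.92 or below.

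Among receptors for semaphorins, 1 of 2 neuropilins and 2 of 8 plexins reached 5. Plxna2, a receptor for class 6 semaphorins and, with neuropilins, for class 3, had means of 5.90 in E1, 7.14 in E2, 6.18 in I1a, 6.74 in I1b, 6.21 in I2, 6.56 in I3a and 6.07 in I3b, with a range of 1.24 (adjusted p 7.08e-04). Plxnb3 reached 5 in I3a alone, at 5.37, beside 4.45 to 4.83 elsewhere. Nrp2 reached 5 in I1a alone, at 5.21, with 4.44 to 4.87 elsewhere. Another Nrp2 probe set, under 5 throughout, stood at 4.32 in I3b, 4.05 in I1a and 2.55 to 3.19 in the other pools. Nrp1, the neuropilin that Sema3a binds, peaked at 3.64 in I3a and lay at 2.66 or below elsewhere. Plxnd1, the receptor of Sema3e, was at 2.39 in all 7 pools. Plxnc1, the receptor of Sema7a, stood at 4.99 in I2 and at 2.90 to 3.82 in the others. Plxna1, Plxna4, Plxnb1 and Plxnb2 stayed at 2.78 or below.

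Of the Eph receptors, 4 of 9 EphA and 1 of 3 EphB genes reached 5. Ephb1 belongs to the EphB class, which binds ephrin-B ligands and is known for its link to NMDA receptors at synapses. It read 6.51 and 6.19 (E1), 4.76 and 4.81 (E2), 5.01 and 4.96 (I1a), 5.95 and 6.30 (I1b), 7.06 and 7.21 (I2), 2.84 and 3.69 (I3a), 3.10 and 3.11 (I3b). I2 was highest, and both I3 pools lay below all other arrays, for a range of 4.03 log2 units (adjusted p 1.63e-07), or 2.14 with values under 5 set to 5. Epha4, a receptor for both ephrin classes with roles in spinal and brainstem circuits, had means of 5.54 in E1, 6.44 in E2, 6.24 in I1a, 6.86 in I1b, 6.03 in I2, 5.55 in I3a and 6.36 in I3b, with a range of 1.32 (adjusted p 2.42e-04). Epha5, a receptor for ephrin-A ligands, had means of 6.59 in E1, 6.41 in E2, 7.35 in I1a, 6.32 in I1b, 6.72 in I2, 6.88 in I3a and 7.74 in I3b, with a range of 1.43 (adjusted p 0.00129).

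Epha10, a family member without kinase activity, stood at 5.47 to 6.06 and was not called among pools (adjusted p 0.112). Epha7 reached 5 in I2 alone, on the strength of 1 array (5.65 and 4.58). Ephb3 and Ephb6 stayed at 2.47 or below. The ephrin-A genes on the array peaked at 4.49 for Efna3 and at 2.69 or below for Efna1, Efna2 and Efna5.

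Whether excitatory and inhibitory types differ in these genes was asked on pool means, 2 E against 5 I pools, by limma. None of the 18 members was called. Over all 4409 genes 1 was (0.0227%), and 273 genes and 1 member had an unadjusted p under 0.05. The pool as a random block also gave 0 members, where 0.136% of all genes were called. The largest difference was that of Sema3e, with means of 7.18 in the E and 9.44 in the I pools, a difference of -2.25 log2 units or 4.77-fold (SE 0.74, 95% interval -3.98 to -0.53, adjusted p 0.737). Neither E pool reached the lowest I pool, I1b. Nrp2 was the other member without overlap, at -0.32 (interval -1.01 to 0.37, adjusted p 0.839). It passed the filter through I1a alone, its E2 and I2 means were 4.44 and 4.45, and with values under 5 set to 5 its difference was -0.06. That is 2 of 18 members without overlap, where 12.2% of all genes had none. For 17 of the 18 members the 95% interval took in 0, and for Sema3a it ran from -1.38 to 4.06, where the pool means were 6.42 and 8.69 in E and 3.23 to 7.49 in I. The Sema3e difference was -1.84 without I2 and -2.61 without I1b, the I pool with the highest Slc17a6. Without I1b and I3a, a setting that keeps I1a, it was -2.74 (adjusted p 0.471). Over its alternatives the adjusted p ran from 0.145 to 0.9996.

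The I1 and I3 families were compared with 2 pools each, in a fit that also held the E and I2 pools. No member was called by limma, and no gene of 4409 (0%) was. An unadjusted p under 0.05 was reached by 496 genes and 4 members. Ephb1 had a mean of 5.55 in I1 and 3.19 in I3, a difference of 2.37 log2 units or 5.16-fold (SE 0.61, interval 0.85 to 3.88, adjusted p 0.305). Sema4a had 4.42 in I1 and 6.13 in I3, a difference of -1.71 (SE 0.35, interval -2.58 to -0.84, adjusted p 0.239). Sema3e had 8.37 in I1 and 9.68 in I3, a difference of -1.30 (SE 0.37, interval -2.22 to -0.39, adjusted p 0.337). Efnb2 differed by 1.16 and Sema7a by 1.22, both higher in I1 and not called. Pool means did not overlap for 6 of 18 members, where 40.0% of all genes had none. With the pool as a random block over 14 arrays, a fit that counts technical replicates in the residual, Ephb1, Sema4a and Sema3e were called (adjusted p 0.0265, 0.0374 and 0.0137). That fit called 114 of all 4409 genes (2.59%). With values under 5 set to 5 the differences were 0.56 for Ephb1 and -1.13 for Sema4a, and with probe sets averaged that of Sema4a was -0.86. The 6 oligodendrocyte genes summed to 22.2 in I1b and 25.3 in I3a, 1 pool of each family, and to 16.9 to 18.8 elsewhere, and their part was not tested.

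**Figure D3:**
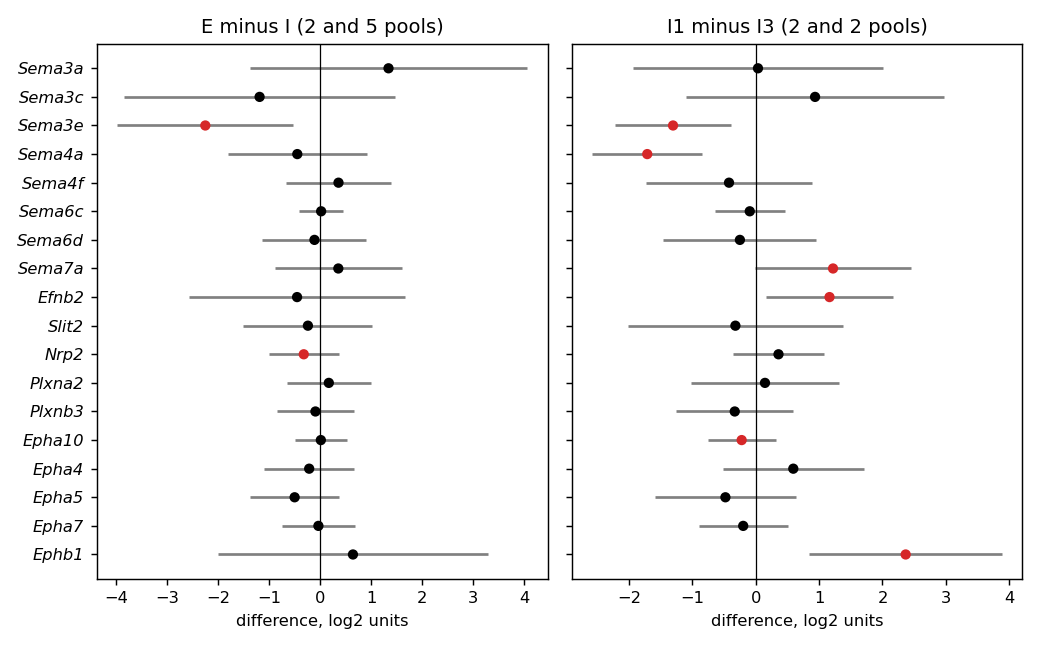
Differences between pool means in log2 units with 95% intervals from limma for the 18 members, E minus I on the left and I1 minus I3 on the right; red points are members whose pool means do not overlap between the groups. Sema3e is the member farthest below 0 on the left (-2.25) and Ephb1 the farthest above 0 on the right (2.37), and none was called after adjustment.

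Between 2 pools of the same family, or of the E class for E1 and E2, larger numbers were called, with technical error alone. In E1 against E2, 6 of 18 members were called, where 7.39% of all genes were. The 4 higher in E2 and 2 higher in E1 compare with 3.20% and 4.20% of all genes. Sema3a was higher in E2, by 4.82-fold, with a difference of -2.27 log2 units (SE 0.22, adjusted p 1.82e-05), and with all probe sets averaged the difference was -1.14 and still called. Also higher in E2 were Sema4f at -1.45, Plxna2 at -1.24 and Sema6d at -1.03. E1 was higher in Slit2, by 1.65 (SE 0.15, adjusted p 1.07e-05), and in Ephb1, by 1.56 (SE 0.25, adjusted p 7.07e-04). The Sema6d call ended without E1 replicate 2 (-0.88) or without E2 replicate 1 (-0.99). Those of Sema4f, Sema6d and Slit2 ended with all probe sets averaged (-0.77, -0.71 and 0.65).

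In I1a against I1b, 3 of 18 members were called, where 13.1% of all genes were. The 2 higher in I1b and 1 higher in I1a compare with 9.78% and 3.36% of all genes. Sema3c was higher in I1b, by 5.77-fold, with a difference of -2.53 (SE 0.31, adjusted p 5.75e-05), but with values under 5 set to 5 it was -0.29 and not called. Ephb1 was higher in I1b, at -1.14 (adjusted p 0.00287), and Epha5 in I1a, at 1.03 (adjusted p 0.00455). Over all genes the median difference of this pair was -0.22. The Ephb1 call ended after quantile normalization (-0.96), with arrays centred (-0.97) and without I1b replicate 2 (-0.96). The Epha5 call ended without I1a replicate 1 (0.75), without I1b replicate 1 (0.99) and with probe sets averaged (0.43). Without the filter at 5, Robo1 and Efna3 were called too, with Robo1 at 2.78 in I1a and 4.77 in I1b. Mbp stood at 2.43 in I1a and 5.50 in I1b, and Slc17a6 at 8.6 and 10.48, and their part in these calls was not tested.

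In I3a against I3b, 2 of 18 members were called, where 9.91% of all genes were. The 1 higher in I3b and 1 higher in I3a compare with 6.92% and 2.99% of all genes. Slit2 was higher in I3b, by 2.32-fold, with a difference of -1.21 (SE 0.15, adjusted p 8.42e-05), and Sema3a in I3a, at 1.10 (SE 0.22, adjusted p 0.00248). With probe sets averaged neither was called (-0.0046 and 0.66), and without I3a replicate 1 Sema3a was not (0.75) while Plxnb3 was. A further Slit2 probe set, under 5 throughout, ran the other way, with 3.58 in I3a and 2.39 in I3b. Another Slit2 set stood at 2.76 in both pools. Without I3a replicate 2 the number called was 5, with Efnb2, Sema3c and Sema7a added, where 9.53% of all genes were called. Sema3a and Slit2 were thus the members called in both this pair and E1 against E2. Mbp stood at 6.20 in I3a and 3.43 in I3b, Cnp at 9.14 and 5.14, the astrocyte gene Gja1 at 4.19 and 2.41, and Slc17a6 at 6.93 and 3.19, and their part was not tested.

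**Figure D4:**
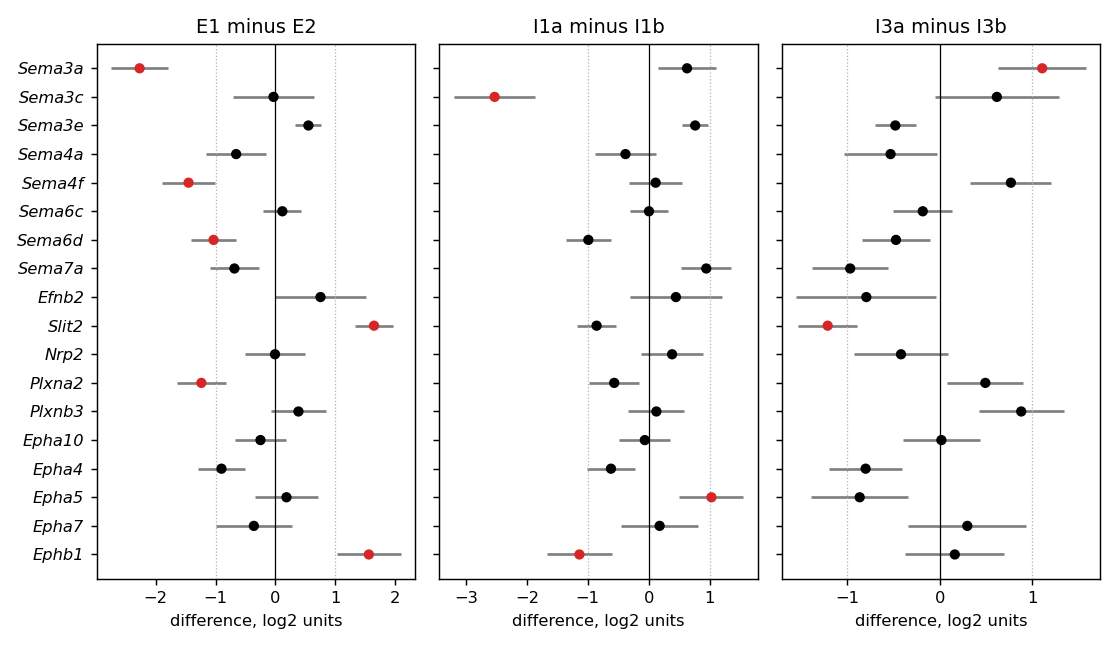
Differences between 2 pools of the E class, the I1 family or the I3 family in log2 units with 95% intervals of the technical error, for the 18 members in 3 pairs; dotted lines mark 1 log2 unit and red points are called members. Red points number 6 in E1 minus E2, 3 in I1a minus I1b and 2 in I3a minus I3b.

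Genes that carry these signals inside the cell were read from a list of 50 partners, of which 43 are on the array and 22 reached 5. Of those tested none was called in E against I or I1 against I3 on pool means, and 13 of 22 differed among the 7 pools (55.2% of all genes). On the semaphorin side 3 of 16 measured genes reached 5, on the ephrin side 8 of 11, on the Slit side 5 of 10, and among genes shared by the pathways 6 of 6. Fyn, a kinase that acts downstream of Sema3a, had a mean of 5.67 in I1 and 7.40 in I3 (difference -1.72, adjusted p 0.194). Limk1, the LIM kinase that inactivates cofilin, had 9.11 in I1 and 7.97 in I3 (difference 1.14, adjusted p 0.271). Chn2, a Rac-inactivating chimaerin, had means of 4.43 in I1 and 7.68 in I3 (difference -3.25, adjusted p 0.142), and was called with values under 5 set to 5 (adjusted p 0.0375) and with the pool as a random block (adjusted p 0.00234). Sdcbp, the syntenin scaffold that binds ephrin-B tails, had means of 8.48 in the E and 6.71 in the I pools (difference 1.77, adjusted p 0.754), without overlap.

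Ngef, an exchange factor that acts downstream of EphA receptors, stood at 6.60 in I2 and at 2.67 to 3.83 in the other pools. It entered the tested partners through I2 alone, so that its place apart in I2 is a description. Vav2, an exchange factor linked to Eph endocytosis, was called in all 3 pairs, higher in E1 (difference 1.08, adjusted p 0.0326), in I1b (difference -2.49) and in I3a (difference 2.60). Its call in E1 against E2 ended without the filter at 5 and without E1 replicate 1, E1 replicate 2 or E2 replicate 1, each left out in turn, and with probe sets averaged it was called in none of the 3 pairs. Vav3 was higher in I3b (difference -2.32), with levels of 4.17 in I3a and 6.49 in I3b. It was set apart low in I3a. Of 22 partners 1 was called in E1 against E2 (7.39% of all genes), 2 in I1a against I1b (13.1%) and 4 in I3a against I3b (9.91%).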

How the data were processed

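Expression was measured on 14 Affymetrix arrays, 2 technical replicates of each of 7 cDNA pools. The deposited values are log2 signals that the authors made with affy and GCRMA, per the submitters' processing notes; versions are not given in the sources used here. No source states the log base; log2 is what GCRMA gives and fits the range of the values. GCRMA corrects background, brings arrays to a common distribution and gives 1 value per probe set; low values collect near a floor. Between 15.1% and 16.4% of 30843 probe sets reached 5 on an array, which takes the place of depth.

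Probe sets were named by the platform annotation. Control probe sets and those without exactly 1 symbol were left out, which kept 24034. All 57 member symbols matched the RefSeq annotation of GRCm38.p6. Each gene was read by its probe set with the highest mean, and genes with a pool mean of 5 or more in some pool were tested. R 4.3.3 with limma 3.58.1 was used (lmFit, eBayes with trend); calls required a Benjamini-Hochberg adjusted p under 0.05 over 4409 genes and 1 log2 unit. E against I and I1 against I3 used pool means, and other tests all 14 arrays with 1 mean per pool. The fits were tested on simulated data in which pools of a group differed by technical noise alone. That does not give the power of the tests on pool means. Figures used matplotlib 3.10.9 and pandas 2.3.3.

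Members, gene lists and tests were chosen with earlier results of these data known. Genes named are the members set apart in a pool, those called per comparison or, where none was, up to 3 with the largest difference without overlap, 2 per class by range, and up to 4 partners per comparison; other members are given by range. Alternatives covered filter, normalization, floor, probe sets, trend, blocks and left-out pools or arrays. The labels do not say whether replicate numbers pair arrays of different pools. Deviations of the first array from its pool mean correlated between pools at -0.117 to 0.212, with a median of -3.42e-04. The correlation was over 0.1 in 4 of 21 pairs of pools, so a pairing of some pools is not settled.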

Additional observations from a re-analysis of the deposited data

Results flagged for a closer look

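Among the 5 I pools, 3 of the 18 members tested had 1 pool whose gap to the nearest other, as a ratio of the whole range, exceeded Dixon's critical value of 0.71. Chance flags about 1 in 20 groups, a rate that takes no account of the filter on each member's highest pool or of repeated values. For Sema3a the ratio was 0.741, with I2 at 3.23 beside 6.39 to 7.49. For Plxnb3 it was 0.804, with I3a at 5.37 beside 4.49 to 4.66, and Plxnb3 passed the filter through I3a alone. Both I1b arrays and an I2 array of Plxnb3 read exactly 4.535359. For Sema6c it was 0.962, with I3b at 5.51 beside 5.31 to 5.32. Most arrays of the other I pools read exactly 5.314476 or 5.31931, so a pool slightly above them gives a high ratio. The Sema6c flag therefore carries no weight. Its gap is also small: the range of Sema6c over the 7 pools was 0.19 log2 units, and it was not called among them (limma adjusted p 0.767).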

How the results depend on the processing

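Signed differences of named genes kept their direction in all 206 combinations of gene, comparison and alternative, and their side of the threshold in 188. In 15 a call ended and in 3 one was gained. Ranges over the 7 pools have no direction, and in 5 of 282 combinations their call ended. The member counts that moved by over 1.5 times were these. With the pool as a random block, 3 members were called in I1 against I3, where 0 were with pool means. Calls over all genes rose as well, from 0 to 114 of 4409 (2.59%). With all probe sets averaged, 3 were called in E1 against E2 (6 with the chosen set), 0 in I3a against I3b (2) and 8 among the 7 pools (13). The shares of all genes fell too, to 4.45% (7.39%), 5.9% (9.91%) and 37.6% (55.2%). Without the filter, 5 of 57 members were called in I1a against I1b (3) and 4 in I3a against I3b (2). Of all 16244 genes 3.55% and 2.58% were called there. Leaving out 1 array gave 5 to 7 members in E1 against E2, 2 to 4 in I1a against I1b, 2 to 5 in I3a against I3b and 13 to 14 among the 7 pools. The shares of all genes were 7.1% to 8.19%, 11.8% to 14.7%, 8.98% to 10.9% and 54.1% to 56.6%. A margin of 2 log2 units left 0 members set apart high (3). Without I1b and I3a, which was chosen after seeing the data, 2 members were low in a pool (1), Ephb1 in I3b being added. The E against I count stayed at 0 in every setting run.

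The replicate number was also used as a block, though the labels do not say whether it pairs the arrays. Counts were 6 in E1 against E2, 3 in I1a against I1b, 2 in I3a against I3b and 13 among the 7 pools, as without it. Quantile normalization and centring moved the median of all kept genes by up to 0.22 and 0.17 log2 units on an array. With values under 5 set to 5, differences or ranges of Sema3c, Ephb1, Sema4a and Nrp2 shrank by over 1.5 times. An unstated number of cells per pool and 1 pool per type limit every statement on cell types.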

Other observations

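Without the filter at 5, which keeps all 57 members, 5 members below 5 in every pool differed among the 7 pools by limma's F test: Efna3, Nrp1, Plxnc1, Robo1 and Sema4b. With them 18 of 57 members were called, and 15.9% of all 16244 genes. Plxnc1 had pool means of 2.90 in E1, 3.05 in E2, 3.66 in I1a, 3.14 in I1b, 4.99 in I2, 3.82 in I3a and 3.09 in I3b, highest in I2, where its ligand gene Sema7a stood at 5.0, its second lowest level. Sema4b, a membrane semaphorin, had means of 3.11 in E1, 2.70 in E2, 2.83 in I1a, 3.39 in I1b, 2.72 in I2, 2.65 in I3a and 4.31 in I3b. Efna3, an ephrin-A ligand, had 3.67 in E1, 3.70 in E2, 3.34 in I1a, 4.49 in I1b, 4.07 in I2, 4.09 in I3a and 3.93 in I3b, and was highest in I1b, as was Robo1. Nrp1 had 2.47 in E1, 2.47 in E2, 2.49 in I1a, 2.66 in I1b, 2.47 in I2, 3.64 in I3a and 2.54 in I3b, with I3a above the rest. Both Nrp1 and Sema4b were also called in I3a against I3b without the filter.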
